A study of Mus musculus with 92 samples.

Results

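Progenitor lines that carried the second of 2 guide RNAs against Adar (Adar1 sgRNA 2) were compared with lines that carried a non-targeting control guide (NTC). The members were the 6 libraries whose titles name either sgRNA #2 Adar KO progenitors (3 libraries) or NTC progenitors (3 libraries), of 92 mouse RNA-seq libraries in the series. The series covers myeloid progenitors, monocytes and macrophages, grown in culture or recovered from the brain, with and without CRISPR editing. All 6 libraries came from ER-Hoxb8 cells, a progenitor line made by transducing marrow of FVB mice with an estrogen-regulated Hoxb8 virus and kept undifferentiated by beta-estradiol with GM-CSF. Both groups were heterozygous for a Cas9 transgene (genotype labels Cas9 het; Adar KO and Cas9 het; NTC) and were transduced with a guide vector. The lines are sorted pools rather than clones, enriched by FACS for the guide's fluorophore, and editing had been checked by trace decomposition of the target site, so some unedited cells may remain. Beside them stood 3 Adar1 sgRNA 1 progenitor libraries (Cas9 het; Adar KO), and 3 NTC and 5 sgRNA 2 macrophage libraries. The macrophages carried the same guides and had spent 7 days in M-CSF without estradiol. Their titles do not say that they came from the same lines. A further 3 libraries held ER-Hoxb8 progenitors without any guide, whose titles name an FVB Cas9 mouse. Levels are also given for marrow progenitors (3 libraries) and microglia from brain (9 libraries), both from wild-type FVB mice.

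ADAR1 converts adenosine to inosine in double-stranded RNA, which keeps the cell's own duplex RNA from being read as foreign by the cytosolic sensor MDA5 (encoded by Ifih1). Without it, MDA5 signals through MAVS to interferon and to interferon-stimulated genes (ISGs), the state seen in Aicardi-Goutieres syndrome. ER-Hoxb8 progenitors resemble granulocyte-macrophage progenitors, which make the azurophil granule proteins that neutrophils later store, and mature into macrophages once Hoxb8 activity is withdrawn.

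Depth was estimated from the smallest step between values, taken as 1 count, and the summed level. It came to 18.4, 21.2 and 23.2 M (mega) counts in NTC replicates 1 to 3 and 21.7, 23.5 and 21.4 M in sgRNA 2 replicates 1 to 3. The offset that the authors' software adds to counts also fixes a mean size for libraries normalized together, and the step gave 1.22 times that size for the set with the NTC progenitors and 0.989 times for the sgRNA 2 set, so NTC depth may be overstated by that ratio. The smaller size was used for floors: 3 counts in a progenitor library were worth 0.0965 to 0.16 CPM (counts scaled to a common library size), and 3 counts over a whole group 0.0472 CPM for NTC and 0.0344 CPM for sgRNA 2, for counting error only. The 8 sgRNA 2 libraries had been normalized apart from the NTC progenitors, so CPM were rebuilt and rescaled together, and guide and normalization set cannot be told apart. Over 2734 genes above 50 CPM the SD of the log2 ratio between replicates was 0.286, 0.264 and 0.272 for the NTC pairs and 0.117, 0.114 and 0.145 for the sgRNA 2 pairs, against 0.0342 to 0.0372 from counting alone. Nothing states that replicates came from separate cultures, so the spread between them may be technical. In the main fit the spread behind the p-values was pooled over 14 libraries, macrophages included, and was not that of the progenitors alone.

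Adar transcript was not lower in sgRNA 2 progenitors. Its level was 18.2, 10.4 and 19 CPM in the NTC libraries and 19, 21.6 and 19.1 CPM in the sgRNA 2 libraries, with NTC replicate 2 the lowest of the 6 and the groups overlapping (log2FC 0.37, SE 0.18, adjusted p = 0.116). Without NTC replicate 2 the log2FC was 0.09, and without NTC replicate 3 it was 0.52 and past the threshold, as it was on the values as deposited (log2FC 0.45). The sgRNA 1 progenitors held 20.1, 18.3 and 19.1 CPM and ER-Hoxb8 progenitors without a guide 22.1, 53.9 and 30.04 CPM. The level of a transcript does not check a guide that cuts within it, because small insertions or deletions need not remove the RNA. Of its relatives, Adarb2, the brain-enriched member of the family that has no known editing activity, measured 5.28, 4.45 and 4.46 CPM in the NTC libraries and 1.04, 0.491 and 1.34 CPM in the sgRNA 2 libraries (log2FC -2.28, SE 0.41, adjusted p = 5.58e-04), a DEG call lost without sgRNA 2 replicate 2 (log2FC -1.91). The cytidine deaminases did not pass the test, with Apobec1 at a mean of 18 and 19.7 CPM and Apobec3 at 52.3 and 50 CPM.

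Across the genome the sgRNA 2 progenitors had lower levels of most listed granule genes and higher levels of most listed microglia genes, while the mean level of the interferon-stimulated genes overlapped with that of NTC. A differentially expressed gene (DEG) had an adjusted p below 0.05 by limma and a fold change, on the log2(CPM + 0.1) scale (log2FC), of 2 or more in size. Of 11135 genes tested, 170 were higher in sgRNA 2 (1.53%) and 178 lower (1.6%), and the median log2FC of all genes tested was -0.05. At the adjusted p alone, 2041 genes were higher (18.3%) and 2369 lower (21.3%); "rose" and "fell" below are used for genes past that limit, and DEG for those that also pass the log2FC limit. Most DEGs sat at modest levels, with the higher of the 2 group means above 10 CPM for 80 that rose and 56 that fell, between 1 and 10 CPM for 85 and 111, and below 1 CPM for 5 and 11. The replicates of the 2 groups did not overlap for 164 of the 170 and 175 of the 178. Since DEGs were picked on these same libraries, that is a description and no separate support. With a pseudocount of 1 in place of 0.1 the DEGs numbered 152, of which 77 were higher. Of 139 genes named here besides Adar, 26 lost their call there, all but Id3, Isg15 and Klf4 as DEGs: Adarb2, Atp6v0d2, C1qa, C1qc, Cd177, Cd36, Fah, Fcnb, Gbp8, Gfap, Hmx2, Hoxb8, Id3, Ifit3, Isg15, Klf4, N4bp2, Nkg7, Oas3, Olfml3, Siglech, Slco2b1, Stag3, Tgtp2, Vcan and Wbp5. Genes were grouped by lists, and those from brain and blood were set aside first.

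**Figure D1:**
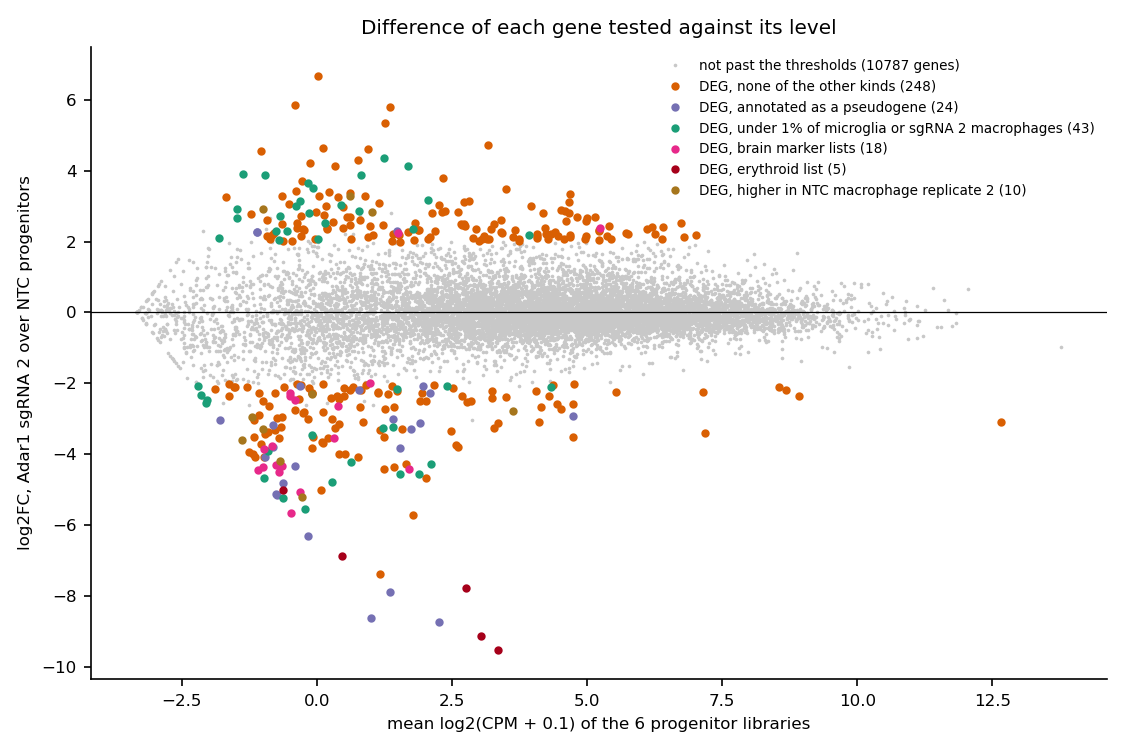
Each point is a gene tested, by its mean log2 level in the 6 progenitor libraries (x) and its log2FC of Adar1 sgRNA 2 over NTC progenitors (y), with the 348 DEGs coloured by kind. Hemoglobin genes and pseudogenes lead the negative side at low sgRNA 2 levels, and Mpo has the highest mean level among the DEGs that fell.

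Several transcripts that mark neurons, glia and red cells, among them Snap25, Gfap and the globins, were present in the NTC libraries and at or near 0 in the sgRNA 2 libraries. The 4 brain lists (neurons, oligodendrocytes, astrocytes, and endothelium with pericytes and ependyma) held 162 genes in the table, of which 49 were tested, 16 fell as DEGs and 2 rose (Ncdn and Sparc), beside 1.6% and 1.53% of all genes, and the median log2FC was -1.10. Counted list by list in that order, lower DEGs numbered 9, 3, 4 and 1, and with a pseudocount of 1 they numbered 2, 1, 1 and 0. Their summed level was 1688, 1939.7 and 1619 CPM in NTC and 1415, 1355 and 1462 CPM in sgRNA 2, led by Calm2, which most cells express. Snap25, a neuronal synaptic protein, measured 4.42, 8.34 and 3.37 CPM in NTC and 0 counts in every sgRNA 2 library, at least 156-fold lower against the floor of 3 counts over the group. Gfap, the astrocyte filament, was at 3.06, 3.97 and 1.33 CPM in the NTC libraries and 0, 0.135 and 0 CPM in the sgRNA 2 libraries. In all, 56 of the 162 genes had 0 counts in every sgRNA 2 library against 4 in every NTC library. Over all 29956 genes the counts were 13469 (45%) and 10585 (35.3%), so zeros were more frequent in sgRNA 2 across the table.

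The erythroid list had 8 genes tested, of which 5 fell as DEGs and none rose, beside 1.6% and 1.53% of all genes. The whole list summed to 1637, 1336 and 1174 CPM in NTC and 664, 569 and 651 CPM in sgRNA 2, with Tfrc, which dividing cells also express, its most abundant gene. Hbb-bs, a beta-globin, measured 358, 276 and 219 CPM in the NTC libraries and 0.267, 0.151 and 0.463 CPM in the sgRNA 2 libraries, and Hba-a1, an alpha-globin, 249.5, 199.9 and 152 CPM in the NTC libraries and 0.221, 0.21 and 0.315 CPM in the sgRNA 2 libraries. The 4 globin genes summed to 754, 581 and 468 CPM in NTC and 1.07, 0.939 and 0.944 CPM in sgRNA 2, and since each has a near-identical copy the split between them is uncertain. Alas2, which starts heme synthesis in red cells, was at 4.48, 3.05 and 3.27 CPM in NTC and 0.024, 0.0182 and 0 CPM in sgRNA 2, a total of under 3 counts there. The same RNA was in the sgRNA 1 progenitors, whose globins summed to 598, 746 and 741 CPM, and in NTC macrophage replicate 2, where they summed to 422 CPM against 0 and 0.0347 CPM in the other NTC macrophage libraries. Progenitors without a guide had 2.51, 1.55 and 2.67 CPM. How this RNA entered the libraries was not tested. With each DEG counted once, 16 lower and 2 higher DEGs were on the brain lists, 5 lower on the erythroid list, and 7 lower (Kit, Nkg7 and Tgtp2 among them) and 3 higher among other genes at least 2 log2 units higher in NTC macrophage replicate 2 than in both of its fellows; the latter rule was chosen after seeing the data.

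**Figure D2:**
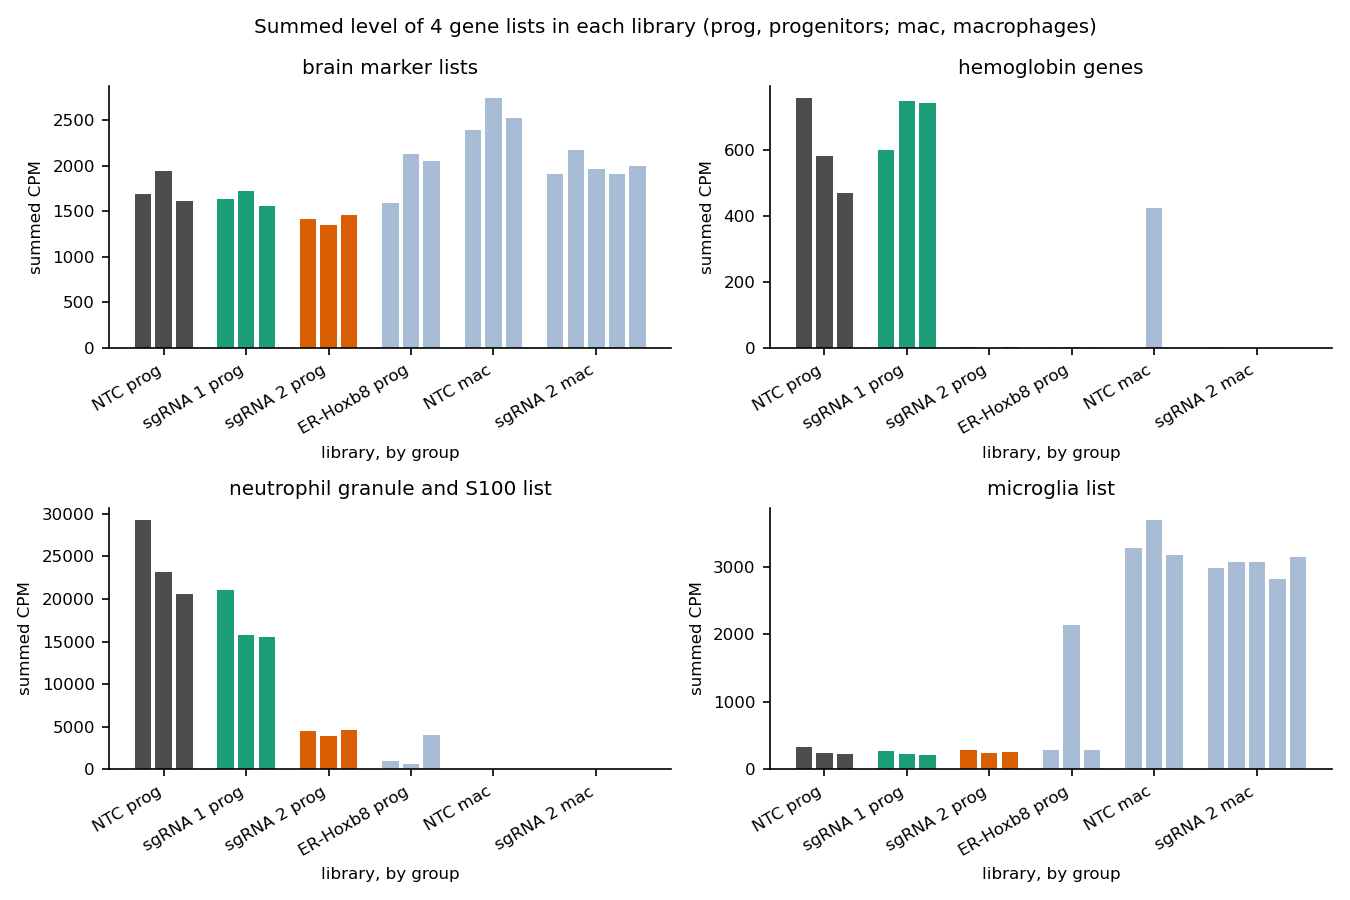
Bars give the summed CPM of 4 gene lists in each progenitor (prog) and macrophage (mac) library. Globin RNA is present in the 3 NTC and 3 sgRNA 1 progenitor libraries and in NTC macrophage replicate 2, and the granule list is lower in every sgRNA 2 progenitor library than in any NTC or sgRNA 1 progenitor library. ER-Hoxb8 progenitors without a guide had 984, 584 and 4035 CPM of the granule list, below or within the sgRNA 2 range.

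The clearest change with a high starting level was in the granule genes, which neutrophil precursors make in sequence. Mpo, which encodes myeloperoxidase, measured 24142, 17688 and 15739 CPM in the NTC libraries and 2245, 1949 and 2438 CPM in the sgRNA 2 libraries, so every sgRNA 2 library was below every NTC library by a factor of 8.68 between the group means (log2FC -3.10, SE 0.32, adjusted p = 7.37e-06). Elane, neutrophil elastase, measured 781, 836 and 708 CPM in the NTC libraries and 179.6, 162 and 203 CPM in the sgRNA 2 libraries, a 4.26-fold difference of means (log2FC -2.09, SE 0.36, adjusted p = 3.88e-04). Prtn3 and Ctsg, further serine proteases of azurophil granules, fell by less and were not DEGs. Prtn3, proteinase 3, was at 1796, 2096 and 1997 CPM in the NTC libraries and 1035, 878 and 941 CPM in the sgRNA 2 libraries (log2FC -1.05, adjusted p = 0.00143), and Ctsg, cathepsin G, at 1729, 1878 and 1585 CPM in the NTC libraries and 831, 749 and 813 CPM in the sgRNA 2 libraries (log2FC -1.11, adjusted p = 8.21e-04). In bulk RNA, fewer cells that express a gene and less of its RNA per cell cannot be told apart.

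Camp, Ngp and Ltf of later granules and the calcium-binding S100 pair started lower than Mpo and fell further, unlike Mmp8 below. S100a8 measured 77.4, 104 and 92.8 CPM in the NTC libraries and 9.02, 6.53 and 7.96 CPM in the sgRNA 2 libraries (log2FC -3.53, SE 0.25, adjusted p = 3.28e-07), and its partner S100a9 9.77, 24 and 24.2 CPM in the NTC libraries and 0.617, 0.541 and 0.854 CPM in the sgRNA 2 libraries (log2FC -4.56, adjusted p = 2.72e-06). Camp, the cathelicidin peptide, was at 8.11, 21.2 and 15.9 CPM in the NTC libraries and 0.798, 0.479 and 0.319 CPM in the sgRNA 2 libraries. Ngp, neutrophilic granule protein, was at 12.6, 25.8 and 20.9 CPM in the NTC libraries and 0.831, 1.06 and 0.778 CPM in the sgRNA 2 libraries, and Ltf, lactoferrin, at 3.58, 7.24 and 11 CPM in the NTC libraries and 0.254, 0.227 and 0.308 CPM in the sgRNA 2 libraries. No sgRNA 2 value of these 5 genes reached its lowest NTC value, and their log2FC ran from -4.56 to -3.53. Chil3, a chitinase-like lectin of early myeloid cells, went from 668, 439 and 362 CPM to 50.4, 40.5 and 42.8 CPM (log2FC -3.41, SE 0.17, adjusted p = 2.92e-08); it has close relatives, so reads may be split. Cd177 and Fcnb, a neutrophil surface protein and a ficolin, fell from means of 3.08 and 1.6 CPM to 0.186 and 0.0682 CPM.

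Of 23 genes on the granule and S100 list, all in the table, 16 were tested, 10 fell as DEGs against 1.6% of all genes, 14 fell at the adjusted p alone, and Mmp8 (neutrophil collagenase, named after its values were seen) was the member that rose (log2FC 1.58, 47.2 to 135 CPM). The list's median log2FC was -3.26 beside -0.05 for all genes tested, and it stayed negative under every scaling tried; with a pseudocount of 1 it was -1.93, with 8 DEGs. The whole list summed to 29266, 23202 and 20618 CPM in NTC and 4484, 3954 and 4563 CPM in sgRNA 2, with Mpo its most abundant gene. Progenitors without a guide summed to 984, 584 and 4035 CPM and marrow progenitors to 6731, 25601 and 21621 CPM, so unedited progenitors of other sets differed widely among themselves. Those without a guide lay below or within the range of the sgRNA 2 libraries. The later granule genes are abundant in other cells of the series, with Ngp at a mean of 2783 CPM in marrow progenitors and a median of 756 CPM in microglia libraries from brain; their part in the NTC level was not tested. NTC macrophage replicate 2, which carried globin RNA, had 0 CPM of S100a9 and 0 CPM of Ngp, though what entered the progenitor libraries was not tested. Pglyrp1, a peptidoglycan-binding granule protein named after its values were seen, moved likewise, from 23.8, 24.4 and 17.8 CPM to 1.32, 1.9 and 1.43 CPM.

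Promoters of 5 granule genes are shown because these genes moved together, as the 250 bases before the transcription start in RefSeq, build GRCm38.p6. They are Mpo at chr11:87793534-87793783 (plus strand), Ctsg at chr14:56102575-56102824 (minus strand), S100a9 at chr3:90695722-90695971 (minus strand), Ltf at chr9:111019042-111019291 (plus strand) and Ngp at chr9:110419558-110419807 (plus strand), each written 5′ to 3′ along the gene. Capitals mark matches, on either strand, to TTGCNNAA (a C/EBP core), TGTGGT (a Runx core) or AGAGGAAGT (a PU.1 site), which belong to factors of granule gene control.
Mpo: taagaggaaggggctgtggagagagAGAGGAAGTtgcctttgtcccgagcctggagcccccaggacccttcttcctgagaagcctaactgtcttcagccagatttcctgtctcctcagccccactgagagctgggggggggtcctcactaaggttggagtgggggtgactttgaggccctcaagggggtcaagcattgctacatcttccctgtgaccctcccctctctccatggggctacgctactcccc
Ctsg: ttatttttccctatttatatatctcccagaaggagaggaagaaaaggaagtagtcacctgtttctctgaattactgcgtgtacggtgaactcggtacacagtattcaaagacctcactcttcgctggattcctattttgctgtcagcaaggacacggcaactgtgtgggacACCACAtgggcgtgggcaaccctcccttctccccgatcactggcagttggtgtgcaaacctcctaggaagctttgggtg
S100a9: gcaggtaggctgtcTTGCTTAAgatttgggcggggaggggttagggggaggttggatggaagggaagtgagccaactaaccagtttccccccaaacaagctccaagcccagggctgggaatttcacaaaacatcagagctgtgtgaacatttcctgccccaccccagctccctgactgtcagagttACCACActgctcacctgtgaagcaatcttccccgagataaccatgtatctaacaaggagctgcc
Ltf: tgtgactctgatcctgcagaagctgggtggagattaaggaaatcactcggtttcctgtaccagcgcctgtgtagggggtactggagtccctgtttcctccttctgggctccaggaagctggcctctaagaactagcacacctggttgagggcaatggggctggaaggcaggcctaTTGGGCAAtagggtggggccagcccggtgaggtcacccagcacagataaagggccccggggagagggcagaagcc
Ngp: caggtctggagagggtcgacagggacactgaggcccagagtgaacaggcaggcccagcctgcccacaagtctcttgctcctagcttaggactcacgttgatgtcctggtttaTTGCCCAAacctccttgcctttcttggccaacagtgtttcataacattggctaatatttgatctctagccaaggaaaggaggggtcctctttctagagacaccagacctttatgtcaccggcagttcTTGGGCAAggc
Of 16 granule genes tested, 14 matched a RefSeq promoter. TTGCNNAA occurred in 6 of the 14 (Fcnb, Lcn2, Ltf, Mmp8, Ngp and S100a9) and in 9.55% of all 27025 promoters of that length. TGTGGT occurred in 2 (Ctsg and S100a9) against 14.2% of all, and AGAGGAAGT in 1 (Mpo) against 0.83%. Members with the C/EBP letters include Mmp8, which rose, and a match describes letters in this window only.

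**Figure D3:**
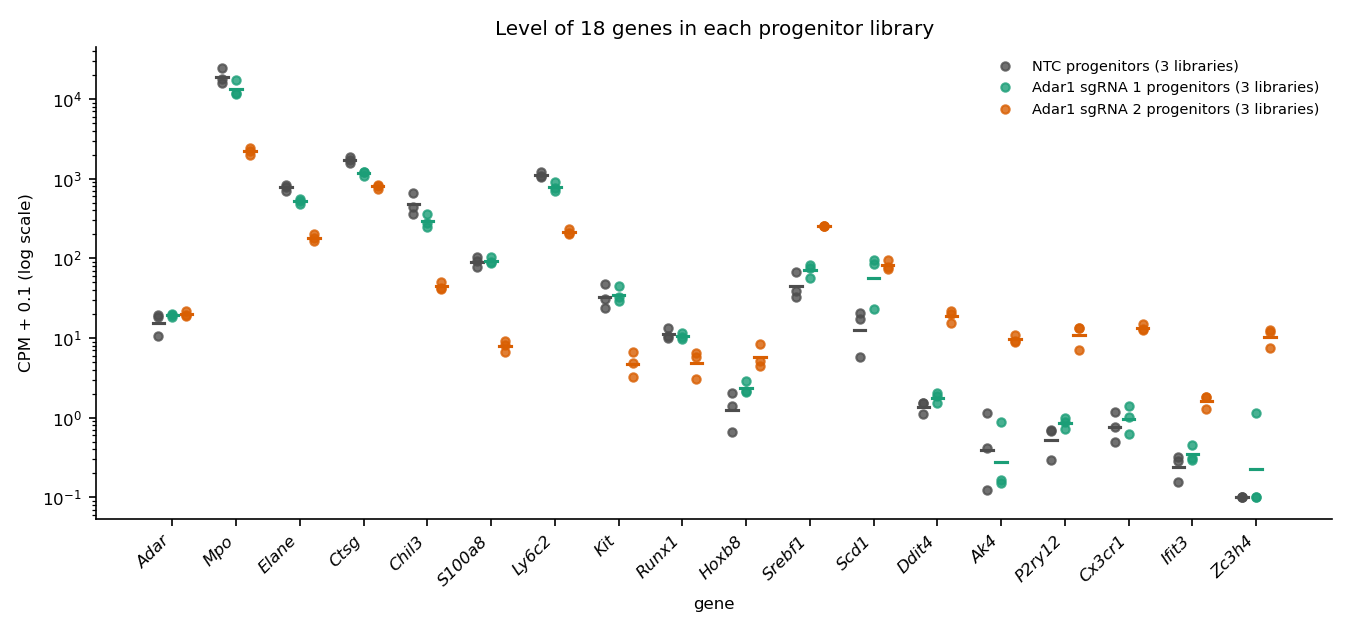
Points are single libraries of NTC, Adar1 sgRNA 1 and Adar1 sgRNA 2 progenitors, bars the mean on the log scale, for 18 genes on a log axis of CPM + 0.1. Mpo, Elane, Chil3, S100a8, Ly6c2 and Kit are lower in all 3 sgRNA 2 libraries than in all NTC libraries, and Srebf1, Ddit4, Ak4, P2ry12 and Cx3cr1 are higher.

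Among progenitor genes, Kit and Hoxb8 moved in opposite directions. Kit, the stem cell factor receptor, measured 47, 23.9 and 30.8 CPM in the NTC libraries and 6.46, 3.13 and 4.81 CPM in the sgRNA 2 libraries (log2FC -2.80, SE 0.62, adjusted p = 0.00261). It is among the DEGs noted above for their level in NTC macrophage replicate 2, with 0, 0.592 and 0 CPM in NTC macrophage replicates 1 to 3. Hoxb8, for which reads of the transgene and of the native gene cannot be told apart, was at 1.3, 0.564 and 1.94 CPM in the NTC libraries and 4.32, 8.32 and 4.99 CPM in the sgRNA 2 libraries (log2FC 2.21, SE 0.48, adjusted p = 0.00241), and Esr1, the estrogen receptor gene, rose from a mean of 4.21 to 12.1 CPM (log2FC 1.47). The list of stem and early progenitor genes had 18 tested, with Hoxb8 the DEG that rose and Kit the DEG that fell, 4 higher and 5 lower at the adjusted p, near the 18.3% and 21.3% of all genes, and a median log2FC of -0.21. Hoxb8 was no DEG without NTC replicate 2 or sgRNA 2 replicate 2 (log2FC 1.76 and 1.94). Runx1, a regulator of early blood development, fell from 10.5, 9.81 and 13.1 CPM to 2.96, 5.71 and 6.34 CPM (log2FC -1.20), and Cd93, a surface protein of early myeloid cells, rose from a mean of 174 to 279 CPM. Prom1 (CD133), named after its values were seen, fell from 25.2, 25.5 and 18.3 CPM to 1.57, 1.74 and 1.3 CPM (log2FC -3.81), as did Cyp11a1, the first enzyme of steroid hormone synthesis, from 18.4, 20.7 and 22.6 CPM to 0.5, 0.628 and 1.09 CPM (log2FC -4.68).

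Among transcription factors of myeloid cells none was a DEG in the main fit. On the values as deposited, with sums made equal or with the GC and length trend removed, 1 fell as a DEG. Of 28 tested, 1 rose and 8 fell at the adjusted p, beside 18.3% and 21.3% of all genes, and the median log2FC was -0.21. The next values were chosen after they were seen. Cebpe, which drives later granule genes, was at 3.08, 3.15 and 3.65 CPM in the NTC libraries and 0.903, 0.994 and 1.59 CPM in the sgRNA 2 libraries (log2FC -1.46, adjusted p = 0.00585). Gfi1, a repressor needed for neutrophil fate, fell from a mean of 16.3 to 7.82 CPM (log2FC -1.07) and Myb from 87.1 to 59.2 CPM (log2FC -0.56). Spi1, which encodes PU.1, had nearly equal means of 10.8 and 10.9 CPM (log2FC 0.01, adjusted p = 0.975), and Irf8, a monocyte factor, had 10.2, 8.01 and 12.8 CPM in NTC and 20.4, 12.5 and 19.9 CPM in sgRNA 2 without passing the test (adjusted p = 0.0709). Gfi1 missed the adjusted p without NTC replicates 1, 2 or 3 or sgRNA 2 replicates 1 or 3 (each left out singly, adjusted p = 0.0675, 0.0994, 0.1, 0.139 and 0.107 in that order, from 1.26e-04 to 0.154 over all settings tried), and Myb without NTC replicates 2 or 3 or sgRNA 2 replicates 1 or 3 (each left out singly, adjusted p = 0.0819, 0.0819, 0.0995 and 0.0932 in that order, from 0.00144 to 0.0995 over all settings tried). Klf2, Klf4, Egr2 and Id3 fell from means of 0.931, 0.399, 1.49 and 0.295 CPM, where Id3 had 0 counts in all 3 sgRNA 2 libraries.

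Monocyte genes did not follow a single direction. Ly6c2, the Ly6C antigen of classical monocytes, measured 1221, 1075 and 1038 CPM in the NTC libraries and 234, 205 and 203 CPM in the sgRNA 2 libraries (log2FC -2.37, SE 0.13, adjusted p = 5.27e-08), though its near-identical neighbour Ly6c1 makes the assignment uncertain. Csf3r, the G-CSF receptor, fell from 25.1, 14.3 and 13.9 CPM to 3.51, 2.44 and 2.95 CPM, and Vcan, a proteoglycan of monocytes, from 5.39, 2.38 and 3.91 CPM to 0.321, 0.111 and 0.203 CPM. Emr1, which encodes F4/80, was at 109.8, 54.8 and 46.7 CPM in the NTC libraries and 11.4, 11 and 10.2 CPM in the sgRNA 2 libraries (log2FC -2.58, adjusted p = 1.11e-06), and the lectin receptor Clec12a at 58.1, 65.5 and 52.4 CPM in the NTC libraries and 11.1, 7.43 and 8.34 CPM in the sgRNA 2 libraries. In the other direction F13a1, coagulation factor XIII A of monocytes, rose from 272, 299.8 and 227 CPM to 868, 799 and 880.4 CPM (log2FC 1.68), Cd68 from a mean of 159.7 to 280.04 CPM and the lipid-binding Fabp5 from 683 to 1119 CPM. Csf1r, the receptor for the macrophage factor used in differentiation, stayed low with overlapping groups, at 18.5, 6.01 and 9.65 CPM in the NTC libraries and 16, 15.3 and 15.1 CPM in the sgRNA 2 libraries. The monocyte, macrophage and dendritic cell list had 38 tested, with 2 DEGs higher, 3 lower, 14 rising and 10 falling at the adjusted p, beside 18.3% and 21.3% of all genes, and a median log2FC of 0.39; the study's 13 macrophage identity genes had 1 DEG each way, 6 rising and 3 falling, and a median of 0.30.

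Most genes that mark microglia rose, many from traces to a few CPM. P2ry12, a purinergic receptor of microglia, measured 0.587, 0.606 and 0.19 CPM in the NTC libraries and 13.1, 7.05 and 13.2 CPM in the sgRNA 2 libraries (log2FC 4.37, SE 0.33, adjusted p = 5.83e-07), and Cx3cr1, the fractalkine receptor, 1.08, 0.395 and 0.658 CPM in the NTC libraries and 15, 12.4 and 12.8 CPM in the sgRNA 2 libraries (log2FC 4.14, SE 0.23, adjusted p = 5.77e-08). C1qb, a subunit of complement C1q, was at 1.76, 1.23 and 0.971 CPM in the NTC libraries and 13.2, 10.7 and 13.4 CPM in the sgRNA 2 libraries (log2FC 3.17), with C1qa and C1qc at log2FC 2.87 and 3.02. Fcrls, Olfml3 and Siglech, further genes enriched in microglia, reached means of 6.67, 3.07 and 3.16 CPM from 0.371, 0.166 and 0.184 CPM. Of 17 listed genes 16 were tested, 10 rose as DEGs against 1.53% of all genes and 12 at the adjusted p, and the median log2FC was 2.62; with a pseudocount of 1 the DEGs were 4 and the median 1.73. Tmem119, another marker of microglia, fell from a mean of 58 to 20.5 CPM (log2FC -1.47). The whole list summed to 325, 241 and 231 CPM in NTC and 288, 243 and 262 CPM in sgRNA 2, because Selplg, its most abundant gene, and Tmem119 fell while 12 others rose. These levels were small beside microglia from brain, which had a median of 21304 CPM of P2ry12; sgRNA 2 progenitors held 0.0522% of that, and 0.206%, 0.316% and 0.079% of the microglia level of Cx3cr1, C1qb and Sparc.

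Many genes of those cells stood at small shares of the microglia level, which differed from gene to gene. Over 65 genes above 100 CPM in microglia and below 1 CPM in every NTC progenitor library, the median share of the microglia level was 0.0383, 0.0565 and 0.0459% in NTC, 0.19, 0.158 and 0.191% in sgRNA 2 and 0.0395, 0.0344 and 0.0648% in sgRNA 1 progenitors, replicates 1 to 3 in order. In progenitors without a guide it was 0.0276, 0.495 and 0.0278%, so 1 unedited library exceeded every sgRNA 2 library. Because low NTC levels were part of how these 65 were picked, the NTC shares are a description. Over 30 genes above 100 CPM in sgRNA 2 macrophages, picked likewise, the share of that level was 0.0897, 0.148 and 0.113% in NTC and 0.233, 0.229 and 0.196% in sgRNA 2. Whether cells, or RNA from other samples, carried these transcripts was not tested. Slco2b1, a transporter, and Xdh, xanthine dehydrogenase, both named after their values were seen, rose from means of 0.178 and 2.44 CPM to 2.33 and 20.9 CPM; microglia held 747 CPM of the former and sgRNA 2 macrophages 692 CPM of the latter. Mmp13, a collagenase also named for its values, rose from 1.49, 2.96 and 2.18 CPM to 16.9, 22.6 and 19.1 CPM and was near 2.01 CPM in sgRNA 2 macrophages, below its progenitor level. Setting aside every gene under 1% of the microglia or sgRNA 2 macrophage level, a rule chosen after seeing the data, left 286 DEGs.

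The mean level of the interferon-stimulated genes overlapped between NTC and sgRNA 2 progenitors. The list is the study's own, so its make-up is not independent of this series. The mean log2(CPM + 0.1) of the study's 20 ISGs was 1.23, 1.17 and 1.05 in NTC and 1.24, 1.20 and 1.22 in sgRNA 2, overlapping, with a difference of 0.07. The difference turned to -0.04 with a pseudocount of 1 and was 0.21 after quantile normalization. Of the 20, all tested, 2 rose as DEGs and 1 fell, beside 1.53% and 1.6% of all genes, 7 rose and 9 fell at the adjusted p, beside 18.3% and 21.3% of all genes, and the median log2FC was -0.20. On the values as deposited 7 rose and 6 fell, and after quantile normalization 8 and 7. The median was -0.12 and -0.17 in these settings and -0.07 with the GC and length trend removed. The summed CPM of the list was 258, 213 and 178 in NTC and 168, 165 and 169 in sgRNA 2. Ifih1, the MDA5 gene itself, fell from 17.1, 12.4 and 11.5 CPM to 7.54, 7.7 and 8.49 CPM (log2FC -0.76, adjusted p = 6.43e-04).

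The 2 members that rose as DEGs were scarce. Ifit3, a partner of Ifit1 in binding viral RNA, measured 0.22, 0.055 and 0.189 CPM in the NTC libraries and 1.69, 1.2 and 1.72 CPM in the sgRNA 2 libraries (log2FC 2.73, SE 0.22, adjusted p = 8.94e-07), and Oas3, an enzyme that activates RNase L, 0.374, 0.562 and 0.293 CPM in the NTC libraries and 1.87, 2.03 and 2.04 CPM in the sgRNA 2 libraries (log2FC 2.06, SE 0.19, adjusted p = 2.34e-06). Both stood at small shares of the sgRNA 2 macrophage level, 0.12% of 1282 CPM and 0.28% of 709 CPM. Ifit3 was no DEG at a pseudocount of 1 (log2FC 1.13), nor Oas3 at a pseudocount of 1 (log2FC 1.08), with the GC and length trend removed (log2FC 2.000) and without NTC replicate 3 (log2FC 1.89). Ifit1 and the ISG15 protease Usp18 rose from means of 0.752 and 0.707 to 1.41 and 1.46 CPM, and Stat2, a subunit of ISGF3, from 16.2, 4.35 and 8.77 CPM to 21.3, 22 and 21.1 CPM. The log2FC of Ifit1, 0.88, was 0.56 without NTC replicate 1, and its call was lost with only the NTC and sgRNA 2 progenitors in the fit (adjusted p = 0.101, from 8.21e-04 to 0.101 over all settings tried). The log2FC of Stat2, 1.32, was 0.84 without NTC replicate 2. Oas1g was the ISG that fell as a DEG, from 8.43, 8.05 and 7.63 CPM to 0.94, 0.901 and 0.527 CPM (log2FC -3.23, SE 0.17, adjusted p = 2.92e-08), while Oas1a fell from a mean of 44.6 to 29.1 CPM; reads of the Oas1 copies may be shared. Ifnb1, the interferon beta gene, had 1 count in all 3 NTC libraries together and 0 in all 3 sgRNA 2 libraries.

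The promoters of 3 ISGs show the element that the interferon factor ISGF3 reads, again as 250 bases upstream in GRCm38.p6 (RefSeq). They are Ifit1 at chr19:34640639-34640888 (plus strand), Isg15 at chr4:156200819-156201068 (minus strand) and Ifit3 at chr19:34583279-34583528 (plus strand), with matches on either strand to the core of the interferon-stimulated response element (GAAA, any 2 bases, GAAA) in capitals.
Ifit1: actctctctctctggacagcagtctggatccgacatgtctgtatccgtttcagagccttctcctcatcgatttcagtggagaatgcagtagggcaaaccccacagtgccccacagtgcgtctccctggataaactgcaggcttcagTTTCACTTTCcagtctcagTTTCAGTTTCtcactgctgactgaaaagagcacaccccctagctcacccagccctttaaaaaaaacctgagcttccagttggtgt
Isg15: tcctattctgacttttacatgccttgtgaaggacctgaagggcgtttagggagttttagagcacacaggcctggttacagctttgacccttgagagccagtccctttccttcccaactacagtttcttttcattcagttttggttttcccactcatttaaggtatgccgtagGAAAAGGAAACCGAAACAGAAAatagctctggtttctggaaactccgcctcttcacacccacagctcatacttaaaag
Ifit3: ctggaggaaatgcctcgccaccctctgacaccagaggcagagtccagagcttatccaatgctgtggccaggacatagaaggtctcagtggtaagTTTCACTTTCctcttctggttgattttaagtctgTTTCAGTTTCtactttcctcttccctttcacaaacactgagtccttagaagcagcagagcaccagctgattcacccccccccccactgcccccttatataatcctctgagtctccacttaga
These letters occurred in 9 of the 15 ISGs with a RefSeq promoter and in 3.04% of all 27025 promoters. The 9 were Cxcl10, Ifit1, Ifit3, Isg15, Oas1a, Oas1g, Oas3, Rsad2 and Stat2, so genes with the element include Ifit3 and Oas3, which rose, Oas1g, which fell, and Rsad2, which did not pass the test (log2FC -0.55, adjusted p = 0.22). Isg15, with 3 overlapping matches, measured 1.33, 1.78 and 1.2 CPM in the NTC libraries and 0.87, 1.18 and 1.06 CPM in the sgRNA 2 libraries (log2FC -0.43, adjusted p = 0.0475), a difference that missed the threshold without NTC replicates 1 or 2 or sgRNA 2 replicates 1 or 3 (each left out singly, adjusted p = 0.0537, 0.188, 0.175 and 0.079 in that order, from 0.0208 to 0.355 over all settings tried).

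**Figure D4:**
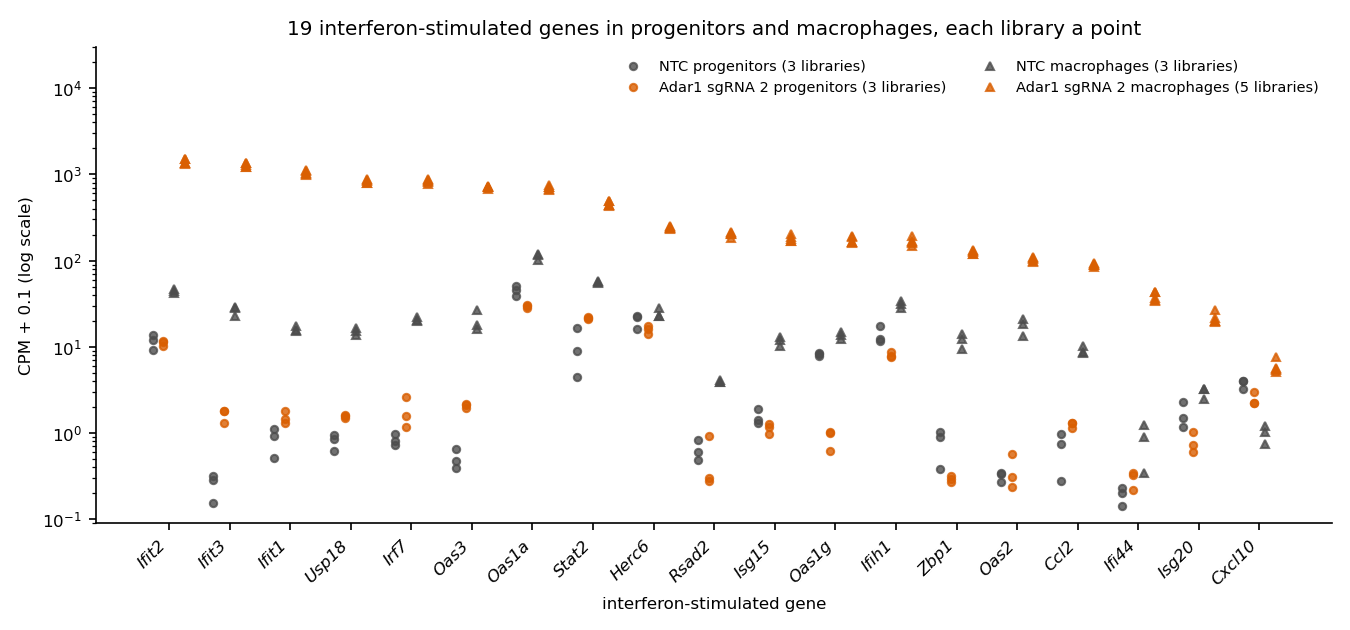
Each point is a library, by gene (x) and CPM + 0.1 on a log axis (y), for 19 of the 20 ISGs in progenitors (circles) and macrophages (triangles) of NTC and Adar1 sgRNA 2. The 5 sgRNA 2 macrophage libraries lie above both progenitor groups, whose means over the 20 genes differ by 0.07 on the log2 scale.

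Wider interferon lists held genes that moved either way, and of all genes 18.3% rose and 21.3% fell. Of 37 other antiviral ISGs tested, 9 rose and 10 fell, near the share of all genes, with Trim30a, a TRIM family protein, the DEG, at 33.6, 23 and 21.9 CPM in the NTC libraries and 4.15, 4.42 and 6.29 CPM in the sgRNA 2 libraries (log2FC -2.37, SE 0.16, adjusted p = 2.35e-07); the median log2FC was -0.10. Of 14 guanylate-binding and immunity-related GTPases, 4 rose and 6 fell, with a DEG each way and a median of -0.68. Gbp8 was the DEG that rose, at 0, 1.22 and 0.828 CPM in the NTC libraries and 2.73, 3.93 and 5.15 CPM in the sgRNA 2 libraries (log2FC 2.98, SE 0.82, adjusted p = 0.0103), and was no DEG without NTC replicate 1 (log2FC 1.82). Gbp6 rose from a mean of 29.7 to 62.3 CPM and Gbp4 from 41.5 to 120.2 CPM, while Tgtp2 fell as a DEG from 2.28 to 0.356 CPM; these families hold near-identical copies. Gbp4 missed the threshold without NTC replicate 3 or sgRNA 2 replicate 2 (each left out singly, adjusted p = 0.0528 and 0.0656 in that order, from 0.00107 to 0.0874 over all settings tried). Of 12 double-stranded RNA sensors, 3 rose and 5 fell (median -0.34). Mavs, the adaptor of MDA5, rose from 30.6 to 41.2 CPM and Eif2ak2, the kinase PKR, from 37.5 to 55.1 CPM, while the endosomal sensor Tlr3 fell from 3 to 0.825 CPM. Mavs missed the threshold with the GC and length trend removed (log2FC 0.20, adjusted p = 0.184), and Eif2ak2 without NTC replicate 2 (adjusted p = 0.0521, from 0.00225 to 0.0521 over all settings tried). In the MHC class I list 2 of 19 rose and 8 fell, among them B2m, from 522 to 296 CPM, and the immunoproteasome subunit Psmb8, from 124, 127 and 100.01 CPM to 40.9, 40.9 and 47.4 CPM (log2FC -1.43). Of 22 JAK-STAT genes 7 rose and 4 fell, with Stat4, which relays IL-12 signals, the DEG, from 45, 33.5 and 30.9 CPM to 7.76, 8.44 and 6.86 CPM, and Stat6 rising from 93.9, 60.7 and 89.2 CPM to 182, 178 and 190.00 CPM.

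The master regulators of lipid synthesis rose while most of the enzymes they control did not. Srebf1 and Srebf2, which encode the SREBP transcription factors, measured 39.3, 32.8 and 67.5 CPM in the NTC libraries and 251, 255 and 255 CPM in the sgRNA 2 libraries for the former (log2FC 2.52, SE 0.25, adjusted p = 4.60e-06) and 25.3, 27.4 and 46.3 CPM in the NTC libraries and 176, 157 and 173 CPM in the sgRNA 2 libraries for the latter (log2FC 2.40, SE 0.22, adjusted p = 2.32e-06). Scd1, stearoyl-CoA desaturase, was at 5.71, 20.3 and 17.3 CPM in the NTC libraries and 73, 77.8 and 94.4 CPM in the sgRNA 2 libraries (log2FC 2.68, SE 0.40, adjusted p = 1.48e-04). These were the 3 DEGs of 26 sterol and fatty acid genes tested, of which 7 rose and 4 fell at the adjusted p, beside 18.3% and 21.3% of all genes; the list's median log2FC was 0.06 beside -0.05 for all genes and turned negative, near 0, with the GC and length trend of each library removed. With the GC and length trend removed, Srebf1 and Srebf2 had log2FC of 1.66 and 1.96 and were no DEGs. Idi1 and Fdps, enzymes of the isoprenoid pathway, fell from means of 417 and 658 CPM to 286 and 458 CPM, while Acly, which makes cytosolic acetyl-CoA, rose from 601 to 906 CPM. Fdps missed the threshold without NTC replicate 2 (adjusted p = 0.0711, from 6.52e-04 to 0.151 over all settings tried). Lpcat3, a phospholipid enzyme regulated by LXR, rose from 146 to 247 CPM. Cd36, a fatty acid translocase, passed as a DEG although its groups overlapped, at 1.74, 0.48 and 0.117 CPM in the NTC libraries and 1.56, 4.85 and 3.94 CPM in the sgRNA 2 libraries, and was none without NTC replicate 3 (log2FC 1.63).

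Most glycolysis and hypoxia genes rose by small steps. Of 23 tested, none was a DEG, 16 rose and 1 fell at the adjusted p by limma, beside 18.3% and 21.3% of all genes, and the median log2FC was 0.55, positive under every scaling tried; 5284 of all 11135 genes had an unadjusted p below 0.05. Bnip3, a mitochondrial hypoxia-response protein, moved most, from 33.1, 50.5 and 35 CPM to 105, 129 and 166 CPM (log2FC 1.75, adjusted p = 4.92e-06). Gapdh rose from a mean of 1175 to 1716 CPM, Pkm from 2758 to 3540.1 CPM and Ldha from 1702 to 2141 CPM, while Car9, a classical hypoxia target, fell from 9.36 to 5.07 CPM. Ak4, a mitochondrial adenylate kinase, measured 0.316, 1.04 and 0.0237 CPM in the NTC libraries and 8.82, 10.7 and 9.01 CPM in the sgRNA 2 libraries (log2FC 4.62, SE 0.75, adjusted p = 2.79e-04). Ddit4 (REDD1), an inhibitor of mTORC1 induced by stress and low oxygen, measured 1.41, 0.998 and 1.41 CPM in the NTC libraries and 15.3, 20.1 and 21.4 CPM in the sgRNA 2 libraries (log2FC 3.80, SE 0.27, adjusted p = 3.30e-07) and was the DEG among 20 genes of the integrated stress response, of which 7 rose and 2 fell. Sesn2, another stress-induced mTORC1 inhibitor, rose from 26.7, 26.2 and 43.7 CPM to 87.8, 93.2 and 88.4 CPM (log2FC 1.52), but Asns, an ATF4 target, fell from 401 to 287 CPM.

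Antioxidant genes fell more often than they rose. In the NRF2 and oxidative stress list 11 of 18 fell, or 9 on the values as deposited, beside 21.3% of all genes, 1 rose and the median log2FC was -0.55. Gstm1, a glutathione transferase, was its DEG, from 1359, 785 and 643 CPM to 213, 182 and 181 CPM (log2FC -2.20, SE 0.21, adjusted p = 3.38e-06). That call was lost with the GC and length trend removed (log2FC -1.96) and without NTC replicate 1 (log2FC -1.89). Gclm, a subunit of the enzyme that limits glutathione synthesis, fell from a mean of 64.2 to 29.4 CPM and Gpx1, the main glutathione peroxidase, from 2841 to 1725 CPM. Among chemokines, Ccl6 was the DEG and fell from 234, 75.8 and 59.4 CPM to 22, 20.9 and 20.8 CPM, while Ccl4 rose from a mean of 193 to 481 CPM and Ccl3 from 205 to 333 CPM. Ccl6 was no DEG without NTC replicate 1 (log2FC -1.65), and Ccl3 missed the adjusted p without sgRNA 2 replicates 1, 2 or 3 (each left out singly, adjusted p = 0.0796, 0.0954 and 0.0953 in that order, from 0.0107 to 0.115 over all settings tried). Without NTC replicate 1 the log2FC was 0.89 for Ccl4 (from 1.65), 0.31 for Ccl3 (from 0.92) and -1.02 for Il1rn (from -1.68). Il1rn, the IL-1 receptor antagonist, fell from 59.4, 16.7 and 13.9 CPM to 6.88, 9.44 and 6.34 CPM. In the cell death list 10 of 22 fell and 3 rose, beside 21.3% and 18.3% of all genes; Bcl2a1a, a survival gene with near-identical copies that may share reads, was the DEG, from a mean of 14.4 to 2.76 CPM. Of 17 p53 targets 4 rose and 3 fell, near the share of all genes, with 162 and 155 CPM of Bax.

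Most proliferation genes did not pass the test. Of 25 mitosis genes 2 rose and 3 fell, with none a DEG and a median log2FC of 0.00; Top2a measured a mean of 394 and 390.4 CPM (adjusted p = 0.979) and Ccnb1 555 and 583 CPM (adjusted p = 0.67). Mki67, the Ki-67 antigen, fell from a mean of 140.3 to 86.2 CPM (log2FC -0.69). Of 29 replication genes 7 rose and 2 fell, beside 18.3% and 21.3% of all genes, with a median of 0.08. Rrm2, a subunit of ribonucleotide reductase, rose from 675, 954 and 843 CPM to 1415, 1442 and 1421 CPM (log2FC 0.81), and Mcm2, part of the replicative helicase, from a mean of 274 to 489 CPM. Sums over the lists were 4591, 4656 and 4185 and 4637, 4498 and 4346 CPM for mitosis, and 5037, 5247 and 4872 and 6439, 6286 and 6199 CPM for replication, NTC before sgRNA 2, so the mitosis sums overlapped between groups and the replication sums did not.

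Remaining lists gave few DEGs. Housekeeping genes had none of 14, although 3 rose and 6 fell at the adjusted p, beside 18.3% and 21.3% of all genes. Among them Actb rose from a mean of 3430.3 to 5290.4 CPM and Ppia fell from 2996 to 1892 CPM. Lysosomal genes had 5 rising and 8 falling of 25, beside 18.3% and 21.3% of all genes, and 6 and 4 on the values as deposited. Atp6v0d2, a proton pump subunit, was the DEG, at 18.8, 3.06 and 3.36 CPM in the NTC libraries and 1.37, 1.54 and 0.869 CPM in the sgRNA 2 libraries, of which NTC replicate 1 was far above its fellows. It was no DEG without NTC replicate 1 or sgRNA 2 replicate 3 (log2FC -1.32 and -1.93). Among enzymes of RNA turnover and silencing, Skiv2l, the helicase of the cytoplasmic exosome's SKI complex, rose as a DEG from 13.9, 11.9 and 27.3 CPM to 84.3, 81.5 and 86.1 CPM (log2FC 2.34, SE 0.25, adjusted p = 8.16e-06) and Drosha, which starts microRNA maturation, from a mean of 49.7 to 93.4 CPM. Of 13 genes that restrict endogenous retroviruses 5 rose and 2 fell, with Dnmt1 rising from 247 to 418 CPM (log2FC 0.83, and 0.51 without NTC replicate 2). Lymphoid markers had 2 of 23 tested, and Cd3e and Ncr1, which mark T and NK cells, were not among them; Nkg7 fell from 1.13 to 0.0954 CPM. Mitochondrial transcripts had none of 9 as DEGs, with mt-Co3 rising from 917 to 1549.8 CPM.

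**Figure D5:**
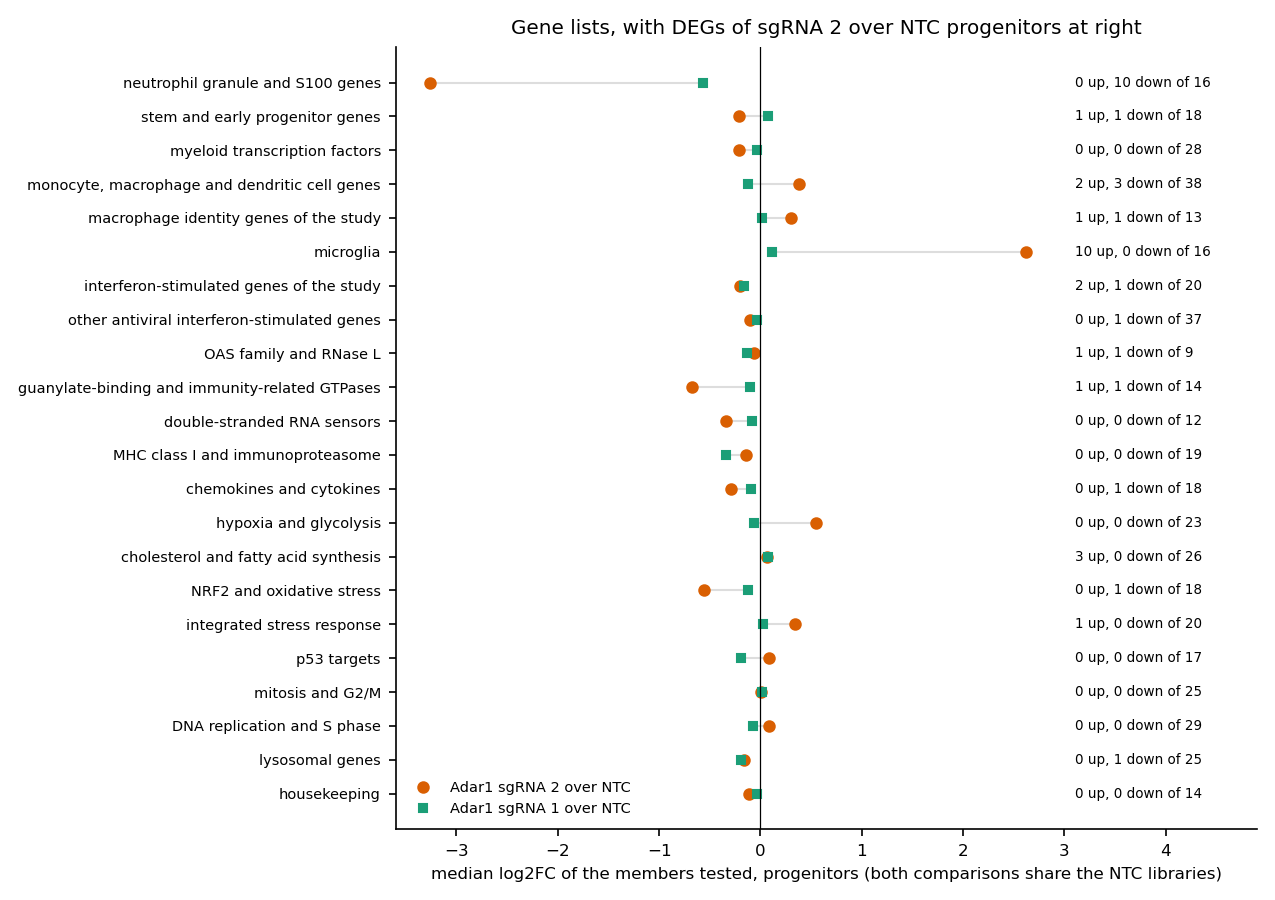
Circles give the median log2FC of each list's tested members in Adar1 sgRNA 2 over NTC progenitors and squares that in Adar1 sgRNA 1 over NTC, which shares the NTC libraries; DEGs of sgRNA 2 are counted at right. The granule list lies at -3.26 and the microglia list at 2.62, and all other lists shown lie between -0.68 and 0.55.

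Genes with 0 counts in every NTC library were among the largest increases. Zc3h4, a zinc finger protein that restrains noncoding transcription, had 0 counts in all 3 NTC libraries and 11.6, 12.5 and 7.28 CPM in sgRNA 2, at least 222-fold higher against a floor of 3 counts over the NTC group. Gatad2b, a subunit of the NuRD chromatin remodeler, likewise had 0 counts in NTC and 5.91, 4.6 and 6.67 CPM in sgRNA 2, at least 121-fold higher, and N4bp2 had 0 and 1.53, 1.84 and 4.1 CPM, at least 52.8-fold higher. Ints1, Brca2 and Zfp445, also in the top 12, differed among the NTC libraries, with values at or near 0 in some; in estimated counts a 0, here or above, need not mean that a gene was silent. Ints1, the largest subunit of the Integrator complex, measured 6.36, 0.0172 and 6.97 CPM in the NTC libraries and 46.3, 49.8 and 43.3 CPM in the sgRNA 2 libraries, and Brca2, a DNA repair gene, 0, 0 and 0.925 CPM in the NTC libraries and 4.36, 8.41 and 4.07 CPM in the sgRNA 2 libraries. Zfp445, an imprinting regulator, had 5.26, 0 and 0 CPM in NTC and 17.9, 11.9 and 16.4 CPM in sgRNA 2. Emilin2, at log2FC 5.80, Epb4.1l2, at 4.14, Ak4, P2ry12 and Cx3cr1 were also in the group. Calls lost with 1 library left out were, in this group, those of Ints1, lost without NTC replicate 2 (adjusted p = 0.0532, from 6.76e-04 to 0.0532 over all settings tried), Zfp445, lost without NTC replicates 2 or 3 (each left out singly, adjusted p = 0.0721 and 0.0636 in that order, from 0.00147 to 0.0721 over all settings tried), and Epb4.1l2, lost without NTC replicates 2 or 3 or sgRNA 2 replicate 1 (each left out singly, adjusted p = 0.0742, 0.0671 and 0.0576 in that order, from 0.00124 to 0.0742 over all settings tried). In those fits the log2FC was 2.78 for Ints1 (from 4.73), 4.38 for Zfp445 (from 5.34) and 3.40, 3.35 and 3.80 for Epb4.1l2 (from 4.14). Zc3h4 and Gatad2b were detected elsewhere, at 2.08, 2.63 and 5.5 CPM and 4.41, 5.74 and 5.46 CPM in ER-Hoxb8 progenitors without a guide. Fitted log2FC values of genes at 0 counts depend on the pseudocount and are no bound.

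DEGs that rose had longer and more GC-rich transcripts than DEGs that fell. The median GC content of transcripts was 56.1% for DEGs that rose (165 of 170 matched), 49.6% for those that fell (168 of 178) and 50.5% for all tested (10676 of 11135), and median lengths were 3046, 1640.5 and 2071 bases. Among 10 classes of genes by GC content, in the class with the highest, 58 rose and 7 fell as DEGs with a median log2FC of 0.22, against 7 and 12 with a median of -0.14 in the class with the lowest. Across 10676 genes, which share libraries and are no replicates, Spearman's rho of log2FC with GC was 0.19 and with length 0.16. For sgRNA 1 over NTC progenitors, which shares the NTC libraries, the values were 0.19 and 0.13. With the GC and length trend of each library removed, chosen after seeing the data, there were 297 DEGs, 115 of them higher. Ddit4, Ak4, P2ry12, Cx3cr1 and Zc3h4 kept their call in that fit, as did Mpo, Elane, Kit and Ly6c2, while Srebf1, Srebf2, Oas3 and Gstm1 fell short of the log2FC limit and Mavs, Fdps and Isg15 missed the adjusted p.

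The largest decreases beyond hemoglobin included pseudogenes and coding genes at or near 0 in sgRNA 2. Gm10288 and Gm10221, both annotated as pseudogenes, had 32, 53.9 and 36.7 CPM and 5.53, 8.96 and 9.51 CPM in NTC and 0 counts in sgRNA 2, at least 1186-fold and 232-fold lower. Of 235 genes annotated as pseudogenes and tested, 21 fell and 3 rose as DEGs, beside 1.6% and 1.53% of all genes; their reads can come from the parent genes, so these values are uncertain. Among coding genes Ncam2, a neural cell adhesion molecule, measured 19.4, 34.2 and 35.8 CPM in NTC and 0.121, 0 and 0.134 CPM in sgRNA 2 (log2FC -7.38, SE 0.45, adjusted p = 1.09e-07). It was as low in sgRNA 1 (0.171, 0.314 and 0.459 CPM) and in ER-Hoxb8 progenitors without a guide (0.105, 0.384 and 0.0426 CPM), so the NTC progenitors were the group that stood apart. Sestd1, a lipid-binding protein, fell from 4.09, 3.45 and 4.15 CPM to an estimated total of 0.52 counts in sgRNA 2, at least 113-fold lower against the floor of 3 counts over the group. Acap2, an ARF GTPase-activating protein, was at 31.4, 27.5 and 17.9 CPM in the NTC libraries and 10.3, 0.00293 and 0 CPM in the sgRNA 2 libraries, with sgRNA 2 replicate 1 far above its fellows.

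The sgRNA 1 progenitors share their NTC controls with sgRNA 2, so values are set side by side, those of sgRNA 2 from the fit of 4 groups. In a fit of 6 groups over 11358 genes, sgRNA 1 differed from NTC by 11 DEGs higher (0.0968%) and 21 lower (0.185%). Mpo had a log2FC of -3.10 with sgRNA 2 and -0.51 with sgRNA 1, Elane -2.09 and -0.57, S100a8 -3.53 and 0.04, and Ly6c2 -2.37 and -0.50. For Kit the pair was -2.80 and 0.09, for P2ry12 4.37 and 0.71, for Ddit4 3.80 and 0.40, and for Srebf1 2.52 and 0.66. Scd1 had 2.68 and 2.16, Hmx2, a homeobox gene, 3.29 and 2.38, Fah, an enzyme of tyrosine breakdown, -3.83 and -3.68, Wbp5 -2.51 and -3.37, and Ncam2 -7.38 and -6.18. Plp2, a membrane protein, had a mean of 5.62 CPM in NTC, 0.269 CPM in sgRNA 2 and 26.5 CPM in sgRNA 1. Other genes parted likewise, with the meiotic cohesin Stag3 at -3.56 and 3.24, F13a1 at 1.68 and -1.30, and Fam64a, a mitotic protein, at 1.26 and -1.99. Of the 32 genes that the study lists for sgRNA 1 progenitors, a list chosen on samples that include these NTC libraries, 30 were tested in the fit of 4 groups, 2 rose and 7 fell as DEGs with sgRNA 2, beside 1.53% and 1.6% of all genes in that fit. At a pseudocount of 1, the list had 1 DEG that rose and 2 that fell.

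Set directly against each other, so that NTC values do not enter the difference, sgRNA 2 progenitors had 133 DEGs higher (1.17%) and 216 lower (1.9%) than sgRNA 1 progenitors. The granule list had 10 of 17 lower, with a median of -2.59, and the microglia list 9 of 16 higher, with a median of 2.37, beside -0.03 for all genes tested. The ISG list had 3 higher and 1 lower of 20, with a median of 0.18, and its mean log2 level was 1.07, 0.99 and 0.87 in the sgRNA 1 libraries, below every sgRNA 2 library. In ER-Hoxb8 progenitors without a guide that mean was 1.88, 3.45 and 1.16, so unedited libraries lay on both sides of the sgRNA 2 values. Mpo measured 17125, 11536 and 11719.6 CPM in sgRNA 1 libraries (log2FC -2.59 for sgRNA 2 over sgRNA 1, adjusted p = 4.97e-06), Kit 44.3, 29.2 and 32.4 CPM (log2FC -2.89, adjusted p = 5.86e-04) and Ly6c2 909, 757 and 698 CPM (log2FC -1.87, adjusted p = 1.42e-05). Srebf1 was at 55.8, 82.2 and 75 CPM (log2FC 1.85, adjusted p = 2.11e-04), and Scd1 at 22.7, 84.4 and 95.5 CPM, where the groups overlapped (log2FC 0.51, adjusted p = 0.446). Globins were again lower in sgRNA 2, with Hbb-bs at 285, 355 and 353 CPM in sgRNA 1 libraries. Guide and normalization set cannot be told apart in this comparison either.

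Macrophages with the same guides were used for a further question, whether the difference between sgRNA 2 and NTC differed between the progenitor and macrophage stages. Guide and normalization set cannot be told apart in the macrophages either. The macrophage difference minus the progenitor difference passed the same limits for 625 genes with a positive value (5.61%) and 270 with a negative value (2.42%), and its median over all genes was 0.05. The mean log2 level of the 20 ISGs was 3.86 in NTC macrophages (SD 0.13, n = 3) and 7.91 in sgRNA 2 macrophages (SD 0.0796, n = 5), a difference of 4.05, and 19 of the 20 had a positive interaction with a median of 3.78. Ifit1 had a mean of 16 CPM in NTC and 1054 CPM in sgRNA 2 macrophages, against 0.752 and 1.41 CPM in progenitors (interaction log2FC 5.15, adjusted p = 8.52e-09), and Rsad2, viperin, 3.9 and 204 CPM against 0.539 and 0.399 CPM. Stat2 was the ISG outside the limit, with an interaction of 1.70 (adjusted p = 0.00369). Adar itself was at 56.8, 70.8 and 53.8 CPM in NTC and 129.8, 128, 127, 127 and 126 CPM in sgRNA 2 macrophages, and its interaction was 0.72 (SE 0.24, adjusted p = 0.0257).

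Other groups moved in progenitors and not in the same way in macrophages. Of all genes tested, 5.61% had a positive and 2.42% a negative interaction at the same limits, beside which the counts below are set. The microglia list had 9 of 16 with a negative interaction (median -2.54), among them Cx3cr1, at 217, 290.3 and 234 CPM in NTC and 249, 307, 299, 245 and 321 CPM in sgRNA 2 macrophages (interaction log2FC -3.94, adjusted p = 2.78e-07), and C1qb, which had means of 41.4 and 15.9 CPM there. Granule genes had 12 positive interactions of 16 tested, at list sums of 55.4, 52 and 57.3 CPM in NTC and 81.2, 80.2, 80.8, 77.2 and 86.5 CPM in sgRNA 2 macrophages, far below those of progenitors, with Mpo at a mean of 0.0933 CPM in NTC and 3.9 CPM in sgRNA 2 macrophages. The median log2FC in macrophages was 0.02 for the microglia list and 0.95 for the granule list. The interactions of these 2 lists therefore largely restate their progenitor differences with the sign turned. F13a1, higher in sgRNA 2 progenitors, was lower in sgRNA 2 macrophages, with means of 1451 CPM in NTC and 72.6 CPM (interaction log2FC -6.00, adjusted p = 4.41e-11). Of 25 mitosis genes 22 had a positive interaction, with Ccnb1 at means of 7.35 and 67.6 CPM in the macrophages. Srebf1 had an interaction of -0.80 (adjusted p = 0.0678), with means of 29.1 and 92.2 CPM in macrophages, so it was higher in sgRNA 2 at both stages. Kit measured 0.197 CPM in NTC and 1.7 CPM in sgRNA 2 macrophages. NTC macrophage replicate 2 carried brain and globin RNA and had been normalized on its own, and without it 4 groups gave 346 DEGs in the progenitor comparison.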

How the data were processed

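RNA-seq was available for 92 libraries, grouped by their labels. The authors deposited 1 table of log2 values: reads had been trimmed with fastp, pseudoaligned to mouse cDNA with kallisto 0.46.0, summarized to genes with tximport and turned into TMM-normalized log2 CPM with edgeR, with an offset that matched a prior count of 2. The lowest values of libraries differed, which showed 6 normalization sets.

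From these, CPM were rebuilt by subtracting the lowest value on the linear scale. Libraries were put on a common scale by a trimmed mean of log ratios over 8810 genes (trim 0.3 of ratios and 0.05 of levels). Of 29957 lines of the table, 1 named no gene and was left out (0.0028 to 0.00738% of a library). Genes were kept where 3 or more libraries exceeded 1 CPM, and tested on log2(CPM + 0.1) by limma 3.58.1 (R 4.3.3, trend, Benjamini-Hochberg over all genes tested) with 4 groups in 14 libraries, or 6 groups in 20 libraries where sgRNA 1 entered. The fit was tested on simulated data. Python 3.11.15, numpy 2.4.6, pandas 2.3.3, scipy 1.17.1 and matplotlib 3.10.9 did the rest.

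The genes named were Adar, the 12 DEGs with the highest and the 12 with the lowest log2FC that were outside the brain lists and had no overlap between groups, the 20 ISGs and, of each of 46 lists, DEGs or the up to 4 members with the largest absolute log2FC or highest level. Members and lists were chosen with earlier results of these data known. Alternatives were other pseudocounts, filters, scalings, log2FC limits, weights and trends, a replicate block, each library left out, and groups of genes set aside. Those for GC content, pseudogenes, the erythroid list, NTC macrophage replicate 2, genes of other cells and sgRNA 1 were chosen after seeing the data. Some genes that this rule names are not reported here.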

Additional observations from a re-analysis of the deposited data

Results flagged for a closer look

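The sgRNA 2 minus NTC difference in macrophages minus that in progenitors was positive for 625 genes and negative for 270, whichever of the 2 was larger in size, by the limma contrast of the 2 differences at the same limits as for DEGs. Of the 20 ISGs, 19 had a positive value. For Adar the macrophage difference exceeded the progenitor difference by 0.72 on the log2 scale. Among the 5 sgRNA 2 macrophage libraries, replicate 5 had a Cxcl10 level of 2.92 (log2 CPM), apart from the other 4 at 2.36 to 2.49. It was 1 of 23 values looked at in that way, and chance sets a library apart in about 1 in 20 groups.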

How the results depend on the processing

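Of 139 named genes besides Adar, 89 kept their direction and their side of the thresholds in every setting run for them, and 5 changed direction in any. The 348 DEGs of sgRNA 2 over NTC progenitors became 152 (77 higher) with a pseudocount of 1, 215 (107 higher) with 0.5, 543 (174 higher, 369 lower) without a filter on low values, 171 (111 higher, 60 lower) with a mean above 5 CPM, and 1328 (746 higher, 582 lower) with a log2FC limit of 1. In the same 5 settings the 349 DEGs of sgRNA 2 over sgRNA 1 became 127, 189, 532 (142 higher, 390 lower), 132 (74 higher, 58 lower) and 1231 (630 higher, 601 lower), from 133 higher and 216 lower. The 32 DEGs of sgRNA 1 over NTC became 14, 19, 16 (mean above 5 CPM) and 117 (limit of 1). The 895 genes with a differing macrophage difference became 499 with a pseudocount of 1, 533 with a mean above 5 CPM and 2437 with a limit of 1. Quantile normalization gave 864 (502 positive, 362 negative, against 625 and 270), and removal of the GC and length trend, chosen after seeing the data, gave 297 DEGs (115 higher, 182 lower). A filter changes how many genes are tested and a pseudocount shrinks the log2FC of low genes, while the cause of the other shifts was not tested. With brain lists set aside 330 DEGs were counted, with the erythroid list and genes of NTC macrophage replicate 2 also set aside 315, and with pseudogenes set aside 324.

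The ISG mean difference of 0.07 was -0.037 with a pseudocount of 1, -0.0039 with 0.5, 0.14 on deposited values, 0.16 with sums made equal and 0.21 after quantile normalization, and 0.03 to 0.11 without 1 library. Adar was at 0.45 on deposited values (adjusted p = 0.0464 by limma, from 0.0356 to 0.556 over all settings) and between 0.089 and 0.52 without 1 library. Without 1 progenitor library there were 313 to 394 DEGs over NTC, 344 to 373 over sgRNA 1, 27 to 39 for sgRNA 1 over NTC and 870 to 922 differing genes. With only the NTC and sgRNA 2 progenitors in the fit, 308 DEGs were counted and Adar had an adjusted p of 0.234 by limma.

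Genes that changed direction did so near 0, without passing the test, and the cause was not tested. Apobec3 had a log2FC of 0.021 on deposited values, 0.018 with equal sums and 0.012 without the GC and length trend, and -0.12 to 0.00022 without 1 library. Bax had 0.021 and 0.018 in the first 2 of these and -0.15 to 0.00100 without 1 library. Spi1 had -0.00021 after quantile normalization, -0.058 without the GC and length trend and -0.079 to 0.077 without 1 library. Top2a had 0.080 on deposited values, 0.052 after quantile normalization, 0.078 with equal sums, 0.16 without the GC and length trend and -0.090 to 0.12 without 1 library. Ccnb1 ran from -0.013 to 0.18 without 1 library.

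Replicate numbers do not pair the libraries by the labels. Deviations of same-numbered NTC and sgRNA 2 progenitors correlated across genes at r = 0.067, 0.087 and 0.062, all below 0.1, although each library correlated best with its own number, a hint from the data only. With the replicate number as a block, 341 DEGs were found over NTC, 353 over sgRNA 1, 30 for sgRNA 1 over NTC and 875 differing genes, and the log2FC of Adar was 0.37 (adjusted p = 0.203). Of the named genes Ccl3, Epb4.1l2 and Isg15 lost their call under the block. Depth limits genes below about 0.16 CPM, where 3 counts or fewer lie behind an NTC value.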
